A study of Homo sapiens with 16 samples.

Results

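CSF1R, the receptor of macrophage colony-stimulating factor, and its ligands CSF1 and IL34 were followed in 2 human breast cancer cell lines given the mitochondria-targeted ubiquinone MitoQ. The rows were taken by gene symbol, 3 of the 35106 gene rows of the count table, and each symbol matched 1 row. The genes were chosen by symbol with their levels and MitoQ fold changes in these libraries already known, so those values stand as a description without a test. Cells of MDA-MB-231 lack hormone receptors and look mesenchymal, while the ERBB2 gene is amplified in SKBR3. The groups were MDA-MB-231 with 500 nM MitoQ for 48 h (5 libraries), MDA-MB-231 controls (5), SKBR3 with 500 nM MitoQ for 48 h (3) and SKBR3 controls (3), with passage 25 for MDA-MB-231 and passage 10 for SKBR3. Passage differed with the line, so the effects of these cannot be told apart. The labels do not say what the controls received or whether replicates came from separate cultures, so p-values measure the spread between these libraries.

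CSF1R is a receptor tyrosine kinase of the family that also holds KIT, FLT3 and the PDGF receptors, and is best known from monocytes, macrophages and osteoclasts, which depend on its signal. CSF1 and IL34 bind it at overlapping sites, although the ligands share little sequence. In breast tumours CSF1 made by tumour cells is known to recruit and sustain macrophages, and CSF1R has also been found on tumour cells themselves.

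The estimated counts summed to 14723152 to 29294865 per library. Where a gene had 0 counts, its CPM (counts scaled to a common library size) could still reach 0.102 in the deepest and 0.204 in the shallowest library, for counting error only. The line labels held against their markers: ERBB2 averaged 5325 CPM in SKBR3 controls and 54.1 CPM in MDA-MB-231 controls, and vimentin (VIM) 0.179 and 3408 CPM. Of the 3 SKBR3 controls, control 3 lay nearest the MitoQ libraries on the first principal component (-7.32, against -23.9 and -24.0 for the other controls and 15.4 to 21.0 for MitoQ). MDA-MB-231 MitoQ 2 stood apart on the second component (-31.3, against 1.33 to 11.6 for the other MitoQ libraries). The share of counts on the 13 mRNAs of mitochondrial DNA was 1.11% ± 0.134 in MDA-MB-231 MitoQ and 3.31% ± 0.233 in control libraries (SD). In SKBR3 it was 5.19% ± 0.0590 with MitoQ and 6.46% ± 0.717 in controls. In these bulk samples, fewer cells with a transcript and less of it per cell cannot be told apart.

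CSF1R (ENSG00000182578) lies on the minus strand of chromosome 5, 150053291 to 150113372 on GRCh38. GENCODE release 29 lists 9 transcripts for it, 3 of them protein coding. RefSeq gives the gene 2 starts, 26.8 kb apart, and the counts, summed per gene, do not tell which one was used. As background, the upstream start is known from placental trophoblasts and the downstream start from macrophages, where PU.1 and RUNX1 bind beside it. The 250 bases before each start are shown because these are the alternative promoters from which the receptor mRNA can begin. They come from RefSeq on GRCh38.p14, minus strand, 5′ to 3′. Capitals mark matches, on either strand, to the PU box (GAGGAA), the RUNX core (TGTGGT), AP-1 (TGANTCA) and C/EBP (TTGCNNAA), motifs chosen after the sequences were seen.
Upstream start, chr5:150113366-150113615: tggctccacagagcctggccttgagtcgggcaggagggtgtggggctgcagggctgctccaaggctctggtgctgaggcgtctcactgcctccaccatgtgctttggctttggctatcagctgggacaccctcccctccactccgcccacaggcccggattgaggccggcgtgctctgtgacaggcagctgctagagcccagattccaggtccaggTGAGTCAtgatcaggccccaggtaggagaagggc
Downstream start, chr5:150086555-150086804: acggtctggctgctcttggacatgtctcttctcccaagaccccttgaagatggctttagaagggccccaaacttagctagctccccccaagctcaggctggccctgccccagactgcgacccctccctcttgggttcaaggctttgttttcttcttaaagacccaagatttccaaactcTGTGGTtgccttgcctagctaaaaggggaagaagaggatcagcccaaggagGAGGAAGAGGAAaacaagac

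The upstream window held 1 AP-1 match, 34 to 28 bases before the start. The downstream window held 2 adjoining PU box matches, 20 to 9 bases before the start, and 1 RUNX core match, 71 to 66 bases before it. No motif overlapped another. Of 35116 windows of the same length in the table, 23.6% hold a PU box, 11% a RUNX core, 6.57% an AP-1 and 9.05% a C/EBP match. A match is a run of letters and says nothing of binding in these cells. The table matched 1 of the 3 genes; CSF1 and IL34 had no entry.

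**Figure D1:**
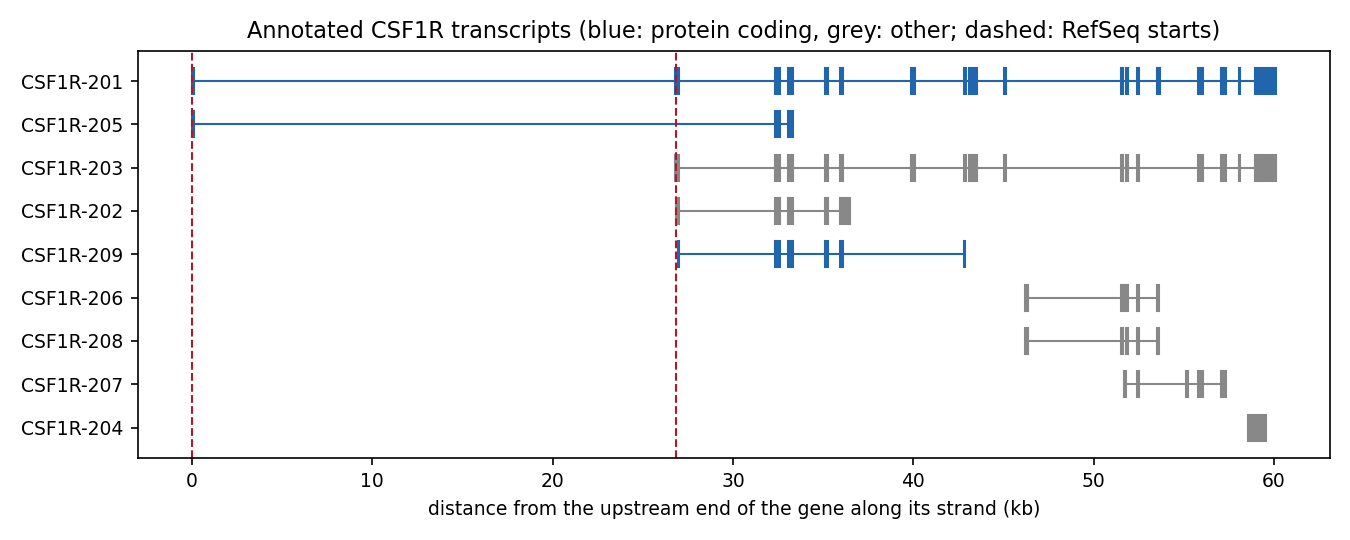
Annotated CSF1R transcripts (GENCODE release 29), with boxes for exons and the distance in kb from the upstream end of the gene along its strand on the x axis. Dashed lines mark the RefSeq starts, 26.8 kb apart; 3 of the 9 transcripts are protein coding.

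The receptor was higher in SKBR3. CSF1R had 36.3, 37.9 and 41.2 CPM in SKBR3 controls, against 2.07, 1.59, 1.77, 1.89 and 1.87 CPM in MDA-MB-231 controls. The SKBR3 libraries held 569 to 1139 counts each and the MDA-MB-231 libraries 41 to 50. The groups did not overlap, and the log2 fold change of SKBR3 over MDA-MB-231 controls was 4.41 ± 0.087 (SE), a 21.2-fold difference. Of the genes tested between the control lines 83% had no overlap of libraries, 39.4% with SKBR3 higher and 43.5% with SKBR3 lower, so such a separation was common. Among detected protein-coding genes ordered by level per length, 68.7% lay below CSF1R in SKBR3 controls and 28.9% in MDA-MB-231 controls.

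With MitoQ, CSF1R lay higher in SKBR3 and lower in MDA-MB-231. In SKBR3 it had 63.6, 69.1 and 74.3 CPM in the MitoQ libraries, against 36.3, 37.9 and 41.2 CPM in the controls. Each MitoQ library lay above each control, with a log2 fold change of 0.81 ± 0.059, a 1.76-fold difference (0.88 without control 3). Of the 15026 genes tested in SKBR3, 250 had a higher log2 fold change. Below CSF1R in level per length lay 81.3% of detected coding genes in MitoQ libraries, against 68.7% in controls.

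In MDA-MB-231 CSF1R had 1.37, 1.44, 1.42, 1.43 and 1.17 CPM in the MitoQ libraries, against 2.07, 1.59, 1.77, 1.89 and 1.87 CPM in the controls. Each MitoQ library lay below each control, though by little, since the highest MitoQ library had 1.44 CPM and the lowest control 1.59 CPM. The log2 fold change was -0.41 ± 0.15, from 28 to 37 counts per MitoQ library and 41 to 50 per control (-0.42 without MitoQ 2). The MitoQ effect in MDA-MB-231 minus that in SKBR3 was -1.26 ± 0.14 on the log2 scale, and with the same data behind the choice of the gene it was not tested. The separation of MitoQ and control libraries was found for 44.1% of all genes tested in MDA-MB-231, 22.9% with MitoQ lower, and for 40% in SKBR3, 21.3% with MitoQ higher.

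Neighbouring genes were measured beside CSF1R. Of its 31-base stretches 0.189% occur in transcripts of other genes. PDGFRB, the neighbour on the same strand, ends 465 bases from the upstream end of CSF1R. It had 0.122 ± 0.103 CPM in SKBR3 MitoQ libraries and 0.179 ± 0.0801 CPM in controls, so the receptor next door was near the floor where CSF1R was high. HMGXB3, which runs toward CSF1R from the other strand and ends 149 bases from it, had 127 ± 2.08 CPM in SKBR3 MitoQ libraries and 104 ± 6.44 CPM in controls (SD, n = 3 each). In MDA-MB-231 HMGXB3 had 70.8 CPM with MitoQ and 75.0 CPM in controls. The pseudogene RPL7P1, inside CSF1R on the other strand, held 87 counts in all 16 libraries. These lay mostly in SKBR3, at 0.758 ± 0.0376 CPM with MitoQ and 0.505 ± 0.312 CPM in controls (SD), against 0.0669 and 0 CPM in MDA-MB-231. Whether reads of HMGXB3 or RPL7P1 entered the CSF1R counts was not tested.

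**Figure D2:**
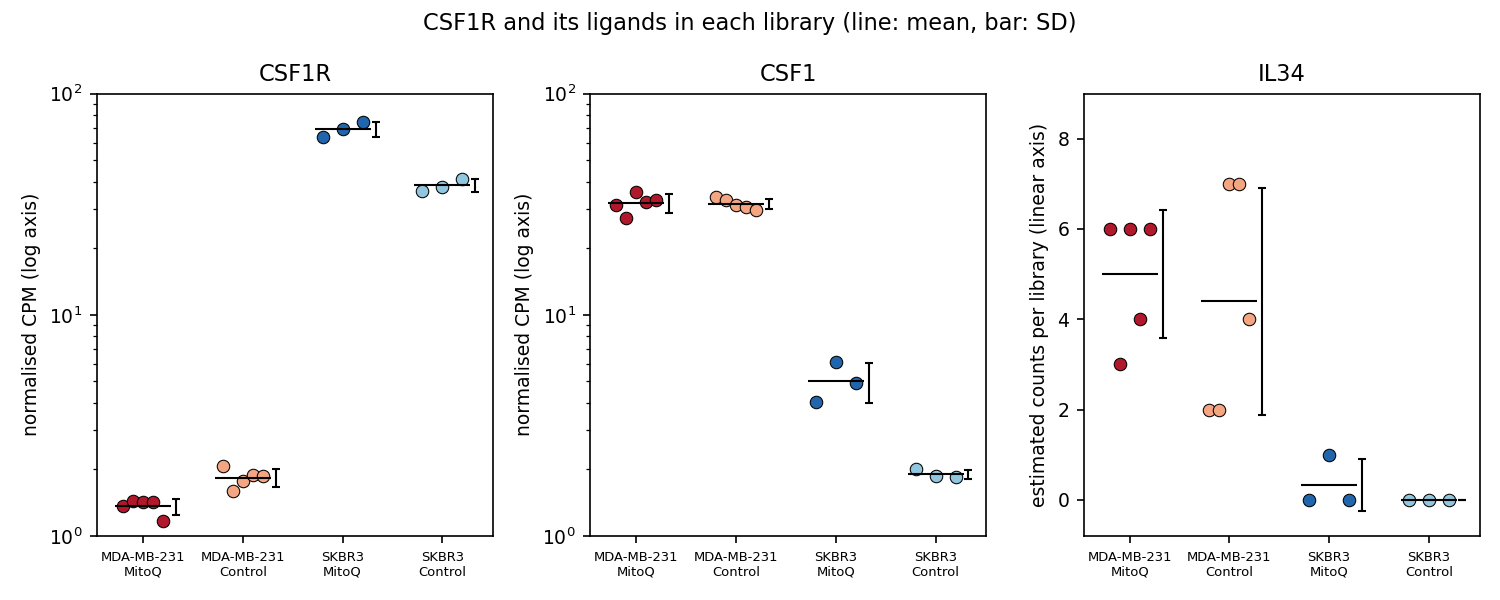
Levels of CSF1R and CSF1 (normalised CPM, log axis) and counts of IL34 (linear axis) in each of the 16 libraries, with the mean and SD of each group. CSF1R is at 63.6 to 74.3 CPM in SKBR3 MitoQ and 36.3 to 41.2 CPM in SKBR3 control libraries, CSF1 lies highest in MDA-MB-231, and IL34 has at most 7 counts.

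The ligand CSF1 was higher in MDA-MB-231. CSF1 (ENSG00000184371) lies on chromosome 1, 109910242 to 109930992, plus strand, and codes for the cytokine that macrophages need to survive. It had 2.00, 1.86 and 1.85 CPM in SKBR3 controls, against 33.9, 32.9, 31.5, 30.6 and 29.8 CPM in MDA-MB-231 controls. The groups were far apart, with a log2 fold change of -4.04 ± 0.098, 16.5-fold lower in SKBR3. SKBR3 controls held 28 to 51 counts of CSF1 each. Of its 31-base stretches 0.0364% occur in transcripts of other genes.

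With MitoQ, CSF1 lay higher in SKBR3 and at the control level in MDA-MB-231. In SKBR3 it had 4.05, 6.13 and 4.90 CPM in the MitoQ libraries, against 2.00, 1.86 and 1.85 CPM in the controls. The groups did not overlap, as for 40% of all genes tested in SKBR3 (21.3% with MitoQ higher). The MitoQ libraries spread more widely than the controls. The log2 fold change was 1.39 ± 0.18, a 2.62-fold difference, with 38 of the 15026 genes tested above it (1.37 without control 3, 1.23 without MitoQ 2). In MDA-MB-231 CSF1 had 31.3, 27.3, 35.7, 32.5 and 32.96 CPM with MitoQ, against 33.9, 32.9, 31.5, 30.6 and 29.8 CPM in controls. These ranges overlapped, with a log2 fold change of 0.028 ± 0.065 (0.087 without MitoQ 2). The effect in MDA-MB-231 minus that in SKBR3 was -1.42 ± 0.18. Even with MitoQ, SKBR3 stayed at 5.03 ± 1.05 CPM (SD, n = 3), while MDA-MB-231 had 31.9 ± 3.09 CPM with it (SD, n = 5).

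The other ligand, IL34, was barely detected. IL34 (ENSG00000157368, chromosome 16, 70579895 to 70660682, plus strand) is the cytokine on which microglia and Langerhans cells depend. In MDA-MB-231 it had 6, 3, 6, 4 and 6 counts in the MitoQ libraries, against 2, 2, 7, 7 and 4 counts in the controls. These sums of 25 and 22 counts gave a ratio of 1.19, with a 95% exact interval of 0.642 to 2.21 that covers counting error only. In SKBR3 it had 0, 1 and 0 counts in the MitoQ libraries and 0 counts in each of the 3 controls, and no fold was taken. Over the group, IL34 was at 0.175 CPM in MDA-MB-231 controls (95% counting interval 0.110 to 0.265) and at most 0.0604 CPM in SKBR3 controls. The first level was 3.57-fold that of 3 counts over the SKBR3 controls, a ratio that leaves out the error of the 22 counts.

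Per length, the receptor led in SKBR3 and the ligand in MDA-MB-231. In CPM per kb of merged exon, CSF1R stood at 13.4 ± 1.04 in SKBR3 MitoQ libraries and 7.47 ± 0.485 in SKBR3 controls (SD). CSF1 stood there at 0.928 ± 0.193 and 0.352 ± 0.0160. The ratio of CSF1R to CSF1 was 11.9 to 16.5 in SKBR3 MitoQ libraries and 19.1 to 23.5 in SKBR3 controls. It was below 1 in MDA-MB-231, at 0.0372 to 0.0556 with MitoQ and 0.0509 to 0.0660 in controls. In MDA-MB-231 the order per length was CSF1, CSF1R, IL34 in all 10 libraries; IL34 averaged 0.0942 ± 0.0303 with MitoQ and 0.0782 ± 0.0442 in controls. With the longest transcript as the length the ratios ran from 11.9 to 16.6 in SKBR3 MitoQ libraries and from 19.1 to 23.6 in SKBR3 controls.

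The levels of macrophage markers were set beside those of CSF1R. Of 22 monocyte and macrophage markers, AIF1, TYROBP and C1QA, 3 of the 6 defining ones, had no count in any library. The leukocyte marker PTPRC (CD45) had 12 counts over the SKBR3 MitoQ libraries and 3 over the controls. Those 12 came mostly from MitoQ 2 (0.399 CPM, against 0.0482 and 0 CPM in MitoQ 1 and 3). In MDA-MB-231 PTPRC had 28 counts with MitoQ and 42 in controls. CD14, another defining marker, had 23 counts with MitoQ and 12 in controls of SKBR3, and 83 and 94 in MDA-MB-231. The summed level of the list was 22.8 to 26.0 CPM in SKBR3 MitoQ and 18.4 to 20.1 CPM in SKBR3 control libraries, against 41.4 to 52.3 CPM in MDA-MB-231 MitoQ and 51.5 to 57.4 CPM in MDA-MB-231 control libraries. Its leading gene was CD68 (42.8 CPM in MDA-MB-231 and 5.69 CPM in SKBR3 controls), a lysosomal protein that is not confined to macrophages. The sum therefore follows CD68 more than the other markers. Between the control lines 7 of the markers were tested. Of these 4 were higher and 3 lower in SKBR3, beside 42% and 44.4% of all genes tested. In SKBR3 6 of the markers had enough counts to test and 2 rose, where 13.8% of all genes tested were called as higher. These were CD68, at 8.73 CPM with MitoQ and 5.69 CPM in controls, and the integrin gene ITGAM, at 0.998 and 0.320 CPM. ITGAM is another of the 6 defining markers and had 70 counts with MitoQ and 21 in controls. It was highest in MitoQ 2 (1.45 CPM, against 0.627 and 0.916 CPM in MitoQ 1 and 3). CSF1 was also highest in MitoQ 2, while CSF1R and CD14 were highest in MitoQ 3. DESeq2 called CD68 and gave ITGAM no adjusted p, and without MitoQ 2 the ITGAM call was lost (adjusted p = 0.0970). In MDA-MB-231 6 were tested, of which CD33 rose and CD68 fell, beside 29.9% of all genes called as higher and 27.6% as lower. CD68, CD33 and ITGAM were named after their values were seen. In SKBR3 controls 17 of the 22 markers averaged under 1 CPM, while CSF1R averaged 38.5 CPM. Of the 7 fibroblast markers 3 were tested in each line; 0 passed in SKBR3 by edgeR, 0 at an unadjusted p under 0.05 and 0 by DESeq2, and 1 fell in MDA-MB-231.

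**Figure D3:**
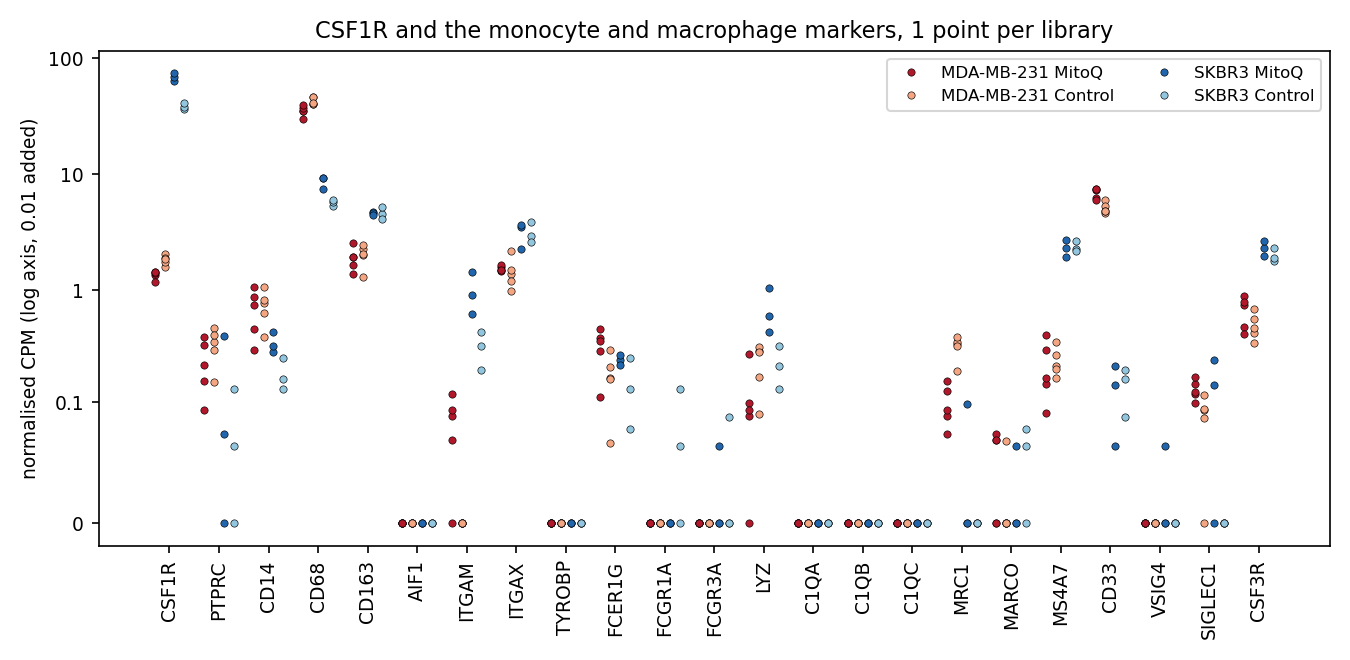
Levels of CSF1R and of 22 monocyte and macrophage markers, 1 point per library, as normalised CPM on a log axis with 0.01 added. CSF1R lies at 36.3 to 74.3 CPM in the SKBR3 libraries, while AIF1, TYROBP and C1QA are at 0 in all 16 libraries.

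The genes around the receptor were then tested, in 6 lists chosen with earlier results of these data known. Adjusted p-values are from edgeR's quasi-likelihood test over all genes. In SKBR3 23 of the 67 members tested rose with MitoQ and 0 fell, with a median log2 fold change of 0.11. Of all genes tested there 28% were called, 13.8% as higher and 14.1% as lower, and their median was -0.00064. At an unadjusted p under 0.05 there were 27 higher and 2 lower members, with DESeq2 18 and 0, and without SKBR3 control 3 there were 24 and 1. In MDA-MB-231 28 of 71 rose and 19 fell, with a median of 0.053, where 57.5% of all genes tested were called, 29.9% as higher and 27.6% as lower, and their median was 0.012.

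**Figure D4:**
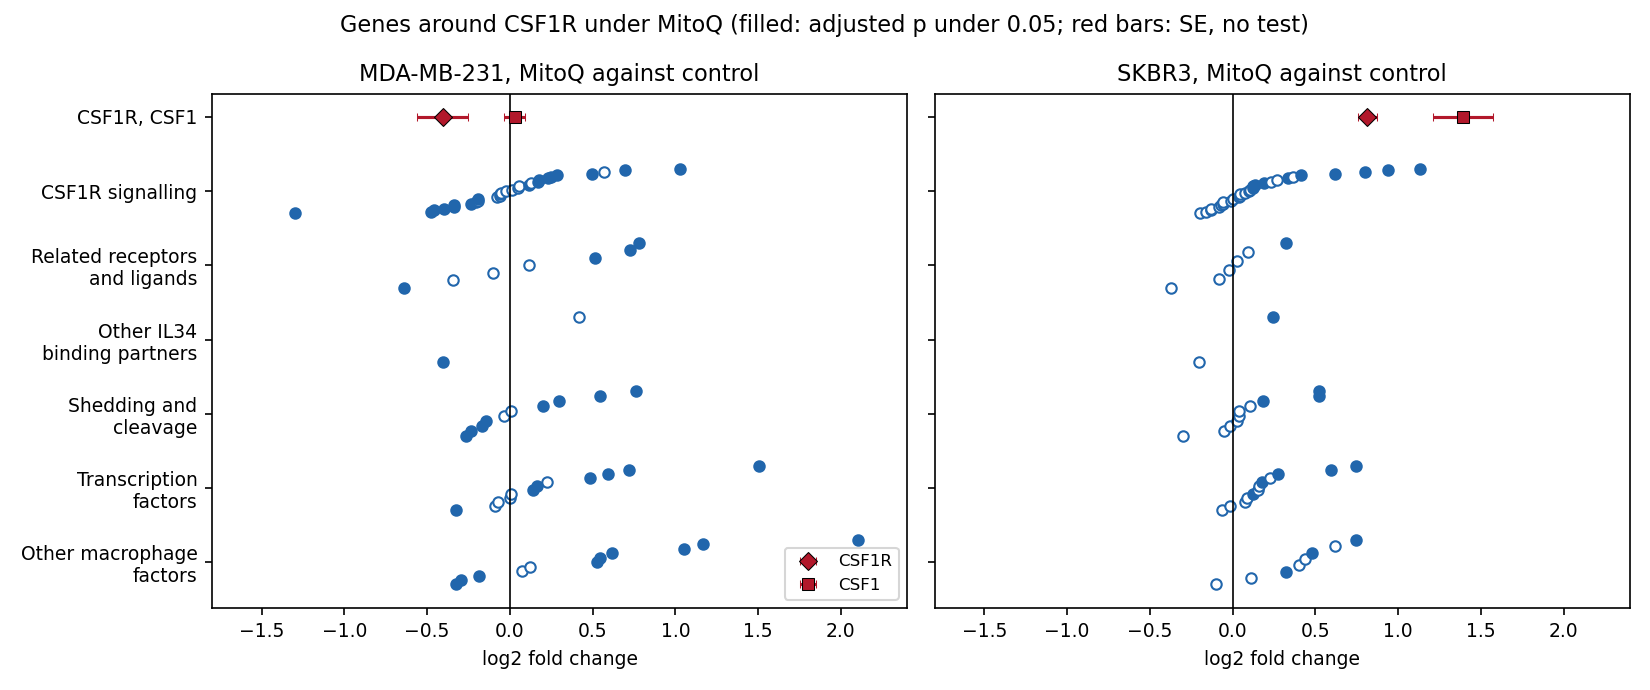
Log2 fold changes with MitoQ in each line for CSF1R and CSF1 (red, with SE and no test) and the tested members of 6 gene lists (filled where the adjusted p was under 0.05). In SKBR3 the filled points all lie right of 0; in MDA-MB-231 they lie on both sides.

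Other partners of IL34 include the proteoglycan syndecan-1 (SDC1), the phosphatase receptor PTPRZ1 and TREM2. SDC1 had 621, 686 and 712 CPM in SKBR3 MitoQ libraries, against 523, 550 and 605 CPM in controls, a 1.18-fold rise (adjusted p = 0.00341). In MDA-MB-231 it fell to 73.8 ± 2.84 CPM with MitoQ, against 98.8 ± 5.83 CPM in controls (adjusted p = 1.33e-06). The 2 effects differed by -0.69 on the log2 scale (MDA-MB-231 minus SKBR3, adjusted p = 3.89e-07). PTPRZ1 did not pass in either line, at 0.791 CPM with MitoQ and 0.961 CPM in controls of SKBR3 (adjusted p = 0.704) and 1.01 and 0.757 CPM in MDA-MB-231 (adjusted p = 0.113). TREM2 had too few counts to test.

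Of the adaptors, kinases and transcription factors that carry the CSF1R signal, 29 of 32 were tested in each line. In SKBR3 10 rose and 0 fell, beside 13.8% and 14.1% of all genes tested, and the median was 0.10. At an unadjusted p under 0.05 there were 13 higher and 2 lower, with DESeq2 7 and 0, and without control 3 there were 10 and 1. PIK3CD, a catalytic subunit of PI3-kinase, had 14.9, 14.6 and 16.6 CPM with MitoQ, against 6.66, 5.92 and 7.82 CPM in controls, a 2.19-fold rise (adjusted p = 5.91e-06). The SRC family kinase FYN rose 1.91-fold to 3.13 CPM (adjusted p = 0.00194). STAT5A rose 1.74-fold to 4.79 CPM (adjusted p = 0.00372). DOK1, an adaptor that dampens signalling, was 1.54-fold higher (adjusted p = 0.0464), a call lost without control 1 (adjusted p = 0.122), control 2 (0.115), MitoQ 2 (0.202) or MitoQ 3 (0.0886) and with DESeq2 (0.132).

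In MDA-MB-231 9 of the 29 tested members of that list rose and 9 fell, beside 29.9% and 27.6% of all genes tested, with a median of -0.025. INPP5D, the phosphatase SHIP1 that opposes PI3-kinase, fell to 0.745 ± 0.234 CPM with MitoQ, against 1.85 ± 0.229 CPM in controls (adjusted p = 3.54e-05). CBLB, a ubiquitin ligase that down-regulates receptor kinases, rose 2.04-fold to 20.4 CPM (adjusted p = 2.61e-09). FYN rose there too, to 73.6 ± 0.963 CPM, against 46.2 ± 1.42 CPM in controls (adjusted p = 1.00e-10), and STAT5A rose 1.41-fold. PIK3CD, which had risen in SKBR3, fell 1.27-fold in MDA-MB-231 (adjusted p = 0.000139), and its effects differed between the lines by -1.51 on the log2 scale (adjusted p = 1.24e-09).

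CSF1 and CSF1R are shed from the cell surface by the metalloprotease ADAM17, which the iRhoms RHBDF1 and RHBDF2 guide, and the receptor stub is cut by gamma-secretase. ADAM17 rose 1.23-fold in MDA-MB-231 (adjusted p = 2.08e-05), and in SKBR3 it had 67.1 CPM with MitoQ and 64.7 CPM in controls (adjusted p = 0.665). RHBDF1 rose in both lines, 1.44-fold in SKBR3 and 1.70-fold in MDA-MB-231. RHBDF2 rose 1.43-fold in SKBR3 (adjusted p = 0.000165) and fell 1.18-fold in MDA-MB-231 (adjusted p = 0.00782). Of gamma-secretase, nicastrin (NCSTN) rose 1.46-fold in MDA-MB-231 and APH1A fell 1.20-fold there. APH1A was 1.14-fold higher in SKBR3 (adjusted p = 0.0410), which was lost without control 2 (adjusted p = 0.107), MitoQ 2 (0.102) or MitoQ 3 (0.157) and in 1 fit over all libraries (0.0593). In all, 3 of 10 members rose in SKBR3 (median 0.039), beside 13.8% of all genes tested. In MDA-MB-231 4 rose and 4 fell (median -0.015), beside 29.9% and 27.6% of all genes tested.

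Of the transcription factors known at CSF1R or CSF1, PU.1 itself (SPI1) was at or near 0: 0.0282 CPM in SKBR3 MitoQ and 0.0222 CPM in SKBR3 control libraries, and 0.0833 and 0 CPM in MDA-MB-231. RUNX1, which binds the macrophage start, was higher by 1.13-fold in SKBR3, at 47.4 CPM with MitoQ and 41.2 CPM in controls (adjusted p = 0.0178, and 0.0691 without control 1). In MDA-MB-231 controls, where CSF1R was low, RUNX1 averaged 161 CPM. The AP-1 subunit JUN rose 1.68-fold in SKBR3 (adjusted p = 1.43e-05), and ETS1 rose 1.51-fold there and 1.40-fold in MDA-MB-231. CEBPB rose to 60.3 ± 4.62 CPM in SKBR3, against 48.8 ± 5.21 CPM in controls (adjusted p = 0.00862). In MDA-MB-231 CEBPB rose to 133 ± 11.8 CPM, against 47.5 ± 4.05 CPM in controls (adjusted p = 7.69e-13), while CEBPA rose 1.51-fold to 3.09 CPM. Of CEBPA 39.8% of the 31-base stretches occur in other transcripts. In all, 5 of 12 tested factors rose in SKBR3 (median 0.16), beside 13.8% of all genes tested. In MDA-MB-231 6 rose and 1 fell (median 0.15), beside 29.9% and 27.6% of all genes tested. These counts were 5 and 2 without MitoQ 2, and 4 and 1 with DESeq2.

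Among the related receptors, KIT and FLT3 had too few counts to test in either line, and PDGFRB, at 1.90 CPM with MitoQ and 2.08 CPM in controls of MDA-MB-231, did not pass (adjusted p = 0.657). Of their ligands PDGFB rose in SKBR3, with 62.9, 72.2 and 68.8 CPM in MitoQ libraries, against 49.1, 52.5 and 58.3 CPM in controls (1.25-fold, adjusted p = 0.00156). In MDA-MB-231 PDGFA rose 1.72-fold, KITLG, the ligand of KIT, 1.66-fold and FLT3LG 1.43-fold, and PDGFC fell 1.56-fold. Of FLT3LG 47% of the 31-base stretches occur in other transcripts. In all 1 of 6 tested members rose in SKBR3 (median 0.0015), beside 13.8% of all genes tested. In MDA-MB-231 3 of 7 rose and 1 fell (median 0.12), beside 29.9% and 27.6% of all genes tested. These counts were 3 and 2 without MitoQ 2.

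Among other factors that recruit or sustain macrophages, the fractalkine gene CX3CL1 rose to 59.4 ± 8.31 CPM in SKBR3, against 34.7 ± 4.12 CPM in controls (adjusted p = 0.00147), and VEGFA rose 1.25-fold. The monocyte chemokine CCL2 was 1.39-fold higher in SKBR3 (adjusted p = 0.0330). That call was lost without control 2 (adjusted p = 0.101), MitoQ 2 (0.125) or MitoQ 3 (0.0940), with DESeq2 (0.0834) and in 1 fit over all libraries (0.208). In MDA-MB-231 the granulocyte factor CSF3 rose 4.29-fold to 6.85 CPM, IL6 2.24-fold, VEGFA 2.08-fold and CSF2, the granulocyte-macrophage factor, 1.53-fold with overlapping libraries. In all 3 of 8 tested factors rose in SKBR3 (median 0.42), beside 13.8% of all genes tested. In MDA-MB-231 6 of 11 rose and 3 fell (median 0.53), beside 29.9% and 27.6% of all genes tested.

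Between the control lines 86.5% of the 16398 genes tested differed, 42% higher and 44.4% lower in SKBR3, and 25 of 73 tested list members were higher and 37 lower in SKBR3. Like CSF1R, PDGFB was higher there (53.3 CPM in SKBR3 and 2.02 CPM in MDA-MB-231 controls), as were KITLG (164 and 9.77 CPM), SDC1 (559 and 98.8 CPM) and the phosphatase PTPN6 (18.8 and 0.546 CPM), which damps CSF1R signals in macrophages. Like CSF1, the cytokine genes LIF (0.700 and 61.9 CPM), TGFB1 (0.996 and 68.3 CPM), CSF2 (0.125 and 4.67 CPM) and IL6 (0.0644 and 2.95 CPM) were lower in SKBR3. So were ETS1 (4.69 and 192 CPM), PDGFC (2.12 and 142 CPM), FYN (1.61 and 46.2 CPM) and SOCS3 (2.52 and 52.7 CPM), an inhibitor of cytokine signalling. Opposite to CSF1R, RUNX1 (41.2 and 161 CPM), JUN (21.1 and 195 CPM) and MITF (7.21 and 31.2 CPM) were lower in SKBR3 as well. Of the 12 transcription factors tested between the control lines, 3 were higher and 7 lower in SKBR3. The effects of MitoQ differed between the lines for 34 of 73 list members, 9 higher and 25 lower in MDA-MB-231, where among all genes 34.1% differed, 14.9% higher and 19.1% lower.

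The genes with the profile nearest to CSF1R and CSF1 were sought over 13603 protein-coding genes and 16 libraries, by the root mean square difference of log2 CPM after centring each gene. These distances are dominated by the gap between the lines, which all libraries of a line share. Nearest to CSF1R was PDGFB, at 0.20, then FBLN1 (fibulin 1) at 0.23 and the calcium channel gene CACNA1I at 0.24. FBLN1 averaged 178 CPM in SKBR3 MitoQ and 130 CPM in SKBR3 control libraries. Nearest to CSF1 was GBP1, an interferon-induced guanylate-binding protein, at 0.20, then UNC5CL at 0.22 and the adenylate cyclase gene ADCY7 at 0.25. GBP1 averaged 3.997 CPM in SKBR3 MitoQ and 1.54 CPM in SKBR3 control libraries, and 23.1 and 19.5 CPM in MDA-MB-231. Of ADCY7 41.1%, of UNC5CL 22.9% and of GBP1 18.4% of the 31-base stretches occur in other transcripts. UNC5CL averaged 0.0805 CPM in SKBR3 controls and 4.06 CPM in MDA-MB-231 controls. CACNA1I averaged 0.297 CPM with MitoQ and 0.359 CPM in controls of MDA-MB-231. At such low levels the 0.25 CPM added before the log narrows the gap between the lines, so these 2 distances depend on it. The added 0.25 CPM also acts on the other distances, since the members themselves were low in 1 line. CSF1R averaged 1.84 CPM in MDA-MB-231 controls and CSF1 averaged 1.90 CPM in SKBR3 controls. IL34 was too low to be compared.

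**Figure D5:**
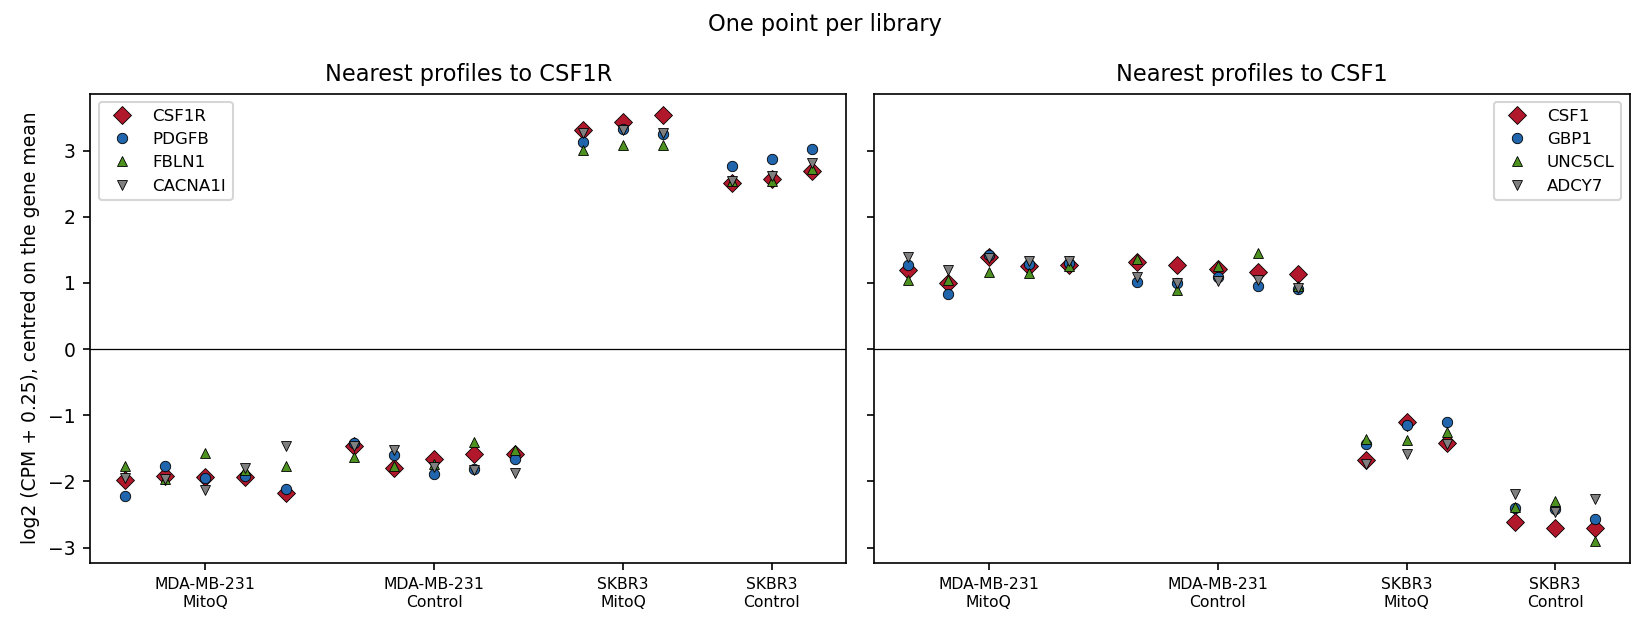
Log2 CPM (0.25 added), centred on each gene's mean, in each of the 16 libraries for CSF1R and CSF1 (red diamonds) and the 3 genes nearest to each. PDGFB lies at a distance of 0.20 from CSF1R and GBP1 at 0.20 from CSF1.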

How the data were processed

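RNA-seq of 16 libraries was deposited as 1 table of estimated counts per gene. The submitters' processing notes name Salmon, edgeR and GRCh38, with no role or version; the authors' annotation is not stated in the labels. The estimated counts were whole numbers as deposited. Of 35106 rows, 35003 matched GENCODE release 29 by ID. Low genes were removed (filterByExpr) and libraries scaled by TMM before the quasi-likelihood test of edgeR 4.0.16 under R 4.3.3 (robust, two-sided, Benjamini-Hochberg over all genes tested, threshold 0.05), MitoQ against control within each line, control lines against each other, and the interaction over all libraries. The SE of a log2 fold change was its size divided by the root of F. IL34 failed the filter and was fitted without it. CPM levels are scaled over all 16 libraries.

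The members, gene lists and tests were chosen with earlier results of these data known. Text names CSF1R, CSF1, IL34, PTPRZ1, SDC1, ADAM17, SPI1 and PDGFRB, and per list and comparison at most 4 called genes of at least 1 CPM with the largest change. One result that this rule picks is not reported here. Outside the rule, CD68, CD33, ITGAM and the MDA-MB-231 changes of PIK3CD and RHBDF2 were named after their values were seen, and the interaction is given for each gene named for MitoQ that passed it. Promoter sequences come from RefSeq. Replicate numbers were not used as a block: same-numbered libraries did not deviate together (correlation -0.145 to 0.0905 over 14258 genes). No pair of replicates agreed within sampling noise (chi-square per degree of freedom at least 2.58). Alternatives were other size factors, plain totals, DESeq2 1.42.0, other filters, mitochondrial mRNAs left out, 1 fit over all libraries, a replicate block and each library left out. The tests were tested on simulated data of 15304 genes for MDA-MB-231 and 15026 for SKBR3. Only a small set of these was changed, far fewer than the genes called here. Changes of 2-fold were recovered in 95.8% and 81.6% of cases, and changes of 1.25-fold in 58% and 47.9%. For the interaction 83.7% were recovered at 2-fold and 50% at 1.5-fold. False calls made up 4.57% of calls in MDA-MB-231, 5.26% in SKBR3 and 6.58% between the control lines.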

Additional observations from a re-analysis of the deposited data

Results flagged for a closer look

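In MDA-MB-231 MitoQ 5 CSF1R had 1.17 CPM from 28 counts, below the other MitoQ libraries at 1.37 to 1.44 CPM from 29 to 37 counts. This was the 1 flag among 48 groups of 5 libraries looked at, where chance flags about 1 in 20. The log2 effect of MitoQ on CSF1R in MDA-MB-231 minus that in SKBR3 was -1.26, with all MitoQ libraries below the controls in MDA-MB-231 and above them in SKBR3; this difference was not tested.

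The MitoQ effect differed between the lines, by the interaction test of edgeR, for 34 of the 73 list members tested, where 34.1% of all genes did. Of these 34, the 24 named for MitoQ or for this difference are given here (adjusted p of 0.0453 or less), as log2 effect in MDA-MB-231 minus that in SKBR3. Among signalling genes it was -1.51 for PIK3CD, -1.28 for INPP5D, -1.14 for DOK1 and 1.06 for CBLB. Among ligands of related receptors it was 0.85 for FLT3LG, 0.71 for KITLG, 0.64 for PDGFA, -0.71 for PDGFB and -0.69 for PDGFC. SDC1 had -0.69. Among shedding and cleavage genes the difference was -0.80 for RHBDF2, -0.49 for APH1A, 0.48 for NCSTN, 0.22 for ADAM17 and -0.25 for PSENEN. The PSENEN call was lost in most alternatives. Among transcription factors it was 1.18 for CEBPB, -0.62 for JUN, -0.35 for ETS2, -0.26 for NFKB1 and -0.22 for RUNX1. Among the other macrophage factors it was -0.82 for LIF, -0.72 for CX3CL1, 0.69 for VEGFA and -0.48 for MIF. MIF shares 59.3% and PSENEN 50.1% of 31-base stretches with other transcripts.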

How the results depend on the processing

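Under the alternatives run, the log2 fold changes of CSF1R kept their direction: 0.81 to 0.84 in SKBR3 and -0.43 to -0.35 in MDA-MB-231 under other settings, and 0.77 to 0.88 and -0.45 to -0.35 with each library left out. CSF1 in SKBR3 ran from 1.23 to 1.53 with each library left out, and in MDA-MB-231 from -0.013 to 0.087. The CSF1 difference between the control lines was -3.95 with a filter at 1 CPM and -4.08 to -3.99 with each library left out. The difference of CSF1 effects ran from -1.55 to -1.22 over the libraries left out. The count of genes called in SKBR3 was 4202, 2788 in 1 fit over all libraries, and 2565 to 4547 with each library left out, lowest without MitoQ 2; the cause was not tested. With plain library totals 58.4% of interaction calls were higher, against 43.9%, and 60.5% of MDA-MB-231 calls, against 51.9%; the median of all genes moved by less than 0.1. In 1 fit over all libraries 61.7% of SKBR3 calls were higher, against 49.4%.

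With the replicate block the counts of calls were 8363 in MDA-MB-231, 4758 in SKBR3 and 5416 for the interaction, and CSF1R was at 0.82 in SKBR3. The block moved no count by over 1.5 times. Between the control lines it was not run, since the numbers are given within a line. Of 96 results of named genes, 1702 alternatives gave 1659 on the same side of the threshold, 43 with the call lost and 0 reversed. The interaction calls lost most often were those of PSENEN (up to adjusted p = 0.177, with plain library totals) and ADAM17 (up to 0.115, without SKBR3 control 2). Most alternatives lost the PSENEN call: it held in 1 of 7 other settings and in 7 of the 16 fits with a library left out. Those of NFKB1 (0.0620 with plain library totals) and LIF (0.0529 without SKBR3 control 1, 0.0760 without SKBR3 MitoQ 3) were lost as well, as was that of RUNX1 (0.207 with plain library totals, 0.0608 without SKBR3 control 1). Depth limits IL34 and the MDA-MB-231 level of CSF1R.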
